A study of Mus musculus with 16 samples.

Results

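The proteasome genes described here are the 42 of the 10208 genes in the authors' deposited table whose names follow the pattern Psma to Psmg plus a number. Another 3 names match the pattern, Psmb8, Psmb9 and Psmb10 of the interferon-induced immunoproteasome, and they were left out of the group. By name, 14 of the 42 belong to the 20S core (Psma and Psmb), 20 to the 19S cap (Psmc and Psmd) and 8 to activators and assembly factors (Psme, Psmf and Psmg). Psma8, Psmb11 and Psmg3 had no row and were not analysed here. RNA was sequenced from islets of adult mice with the genotype Ins1-/-:Ins2f/f:Pdx1CreERT:mTmG on a mixed, mostly C57Bl/6 background. The 16 samples were 7 labelled Cre+T and 9 labelled Cre-T, and all mice had received tamoxifen 6 days before islet isolation. Every mouse thus lacked Ins1 and carried loxP-flanked Ins2 and mTmG, a fluorescent reporter of recombinase activity. The labels state 20000000 read pairs for every sample, and the files do not give the number reached in each. Pdx1 sequence drives the tamoxifen-activated recombinase CreERT, and the labels give it to both groups without saying what Cre-T animals carried.

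The proteasome is the protease that degrades most ubiquitin-tagged proteins of the cytosol and nucleus, including proteins exported from the endoplasmic reticulum for degradation. Its 20S core is a barrel of alpha rings, which gate the entrance, and beta rings, which hold the proteolytic sites. The 19S cap binds ubiquitin chains, removes them and unfolds the substrate with a ring of ATPases. Dedicated chaperones, among them the Psmg proteins, put the rings together and leave. Beta cells make large amounts of proinsulin, and the proteasome takes up the part that misfolds and is exported to the cytosol.

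The promoters of 3 members with clear differences are shown, Psmg1 with the largest fall, Psmb5 as the catalytic subunit that was lower, and Psmd12 with the largest rise. Each line holds the 250 bases before the start of the gene in RefSeq on GRCm38.p6, read 5′ to 3′ on the strand of the gene. Capitals mark TGACNNNGC on either strand, the core of the antioxidant response element, through which the transcription factor NRF1 is known to act on proteasome genes.
Psmg1 (chr16:95990961-95991210, minus strand): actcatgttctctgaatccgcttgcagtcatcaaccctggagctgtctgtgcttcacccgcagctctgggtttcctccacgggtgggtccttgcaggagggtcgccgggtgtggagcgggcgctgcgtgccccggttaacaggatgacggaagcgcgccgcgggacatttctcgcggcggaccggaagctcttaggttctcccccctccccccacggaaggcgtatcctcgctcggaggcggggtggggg
Psmb5 (chr14:54617996-54618245, minus strand): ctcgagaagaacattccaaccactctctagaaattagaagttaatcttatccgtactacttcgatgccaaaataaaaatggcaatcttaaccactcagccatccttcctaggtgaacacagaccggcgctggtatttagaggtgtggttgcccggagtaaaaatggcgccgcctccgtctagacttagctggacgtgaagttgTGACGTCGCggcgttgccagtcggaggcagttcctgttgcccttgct
Psmd12 (chr11:107479278-107479527, plus strand): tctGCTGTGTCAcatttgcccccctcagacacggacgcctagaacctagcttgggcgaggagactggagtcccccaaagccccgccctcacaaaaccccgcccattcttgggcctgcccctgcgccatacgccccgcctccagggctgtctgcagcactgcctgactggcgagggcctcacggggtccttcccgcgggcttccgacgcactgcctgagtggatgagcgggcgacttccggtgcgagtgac
The match began 47 bases upstream of the start in Psmb5 and 247 bases upstream, on the opposite strand, in Psmd12, and the 250 bases of Psmg1 held none. Over windows from 250 bases before to 50 after the start, 6 of the 35 member genes with an entry held the motif (17.1%), beside 14.0% of 27025 genes. The 6 were Psmb5, Psmb6, Psmc6, Psmd9, Psmd12 and Psme4, of which 1 was lower, 1 was higher and 4 did not pass the test below. CCAAT on either strand, the box bound by NF-Y, was in 34.3% of the member genes and 41.1% of all genes. Psmb1, Psmb2, Psmb7, Psmc3, Psmd3, Psmd7 and Psmg2 had no entry.

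The Cre+T islets were set against the Cre-T islets, a design meant to delete Ins2 in mice without Ins1. The authors' deposited table gave Ins2 a log2 fold change of -0.47 ± 0.17 (limma adjusted p = 0.041) and Esr1, part of the CreERT fusion, of 9.30 ± 0.39. The header names no direction, and Cre+T over Cre-T was inferred from these 2 signs, so they are no check of the labels. The groups differed in Esr1 as well as in Ins2, so effects of CreERT and of Ins2 loss cannot be told apart. Values after ± are standard errors, taken as fold change over moderated t, and the table held no values per sample. Markers of acinar cells were higher in 19 of 20 measured genes (median log2 fold change 2.57), of leukocytes in 5 of 10 (0.91) and of red blood cells in 3 of 4 (3.37), per the authors' deposited table. Of 9 beta-cell markers 5 were higher and 1, Ins2, was lower. Among all genes 17.6% were higher and 20.1% lower at the same limma adjusted p under 0.05. The sample titles start with one of 6 unexplained numbers, and 2 of these hold samples of both groups, so for the other 9 samples a difference between numbers and one between groups cannot be told apart.

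More proteasome genes fell than rose in Cre+T, most of them by a small amount, and the 2 largest falls were in genes of chaperones that assemble the 20S core. At a limma adjusted p under 0.05, 15 of the 42 members were lower and 3 were higher per the authors' deposited table. These are 35.7% and 7.14% of the members, beside 20.1% lower and 17.6% higher over all genes. At a limma adjusted p under 0.01, 5 members were lower and 3 higher, beside 10.6% lower and 7.41% higher over all genes, so at that threshold the members' shares were near those of all genes. The median log2 fold change was -0.11 for the members and -0.0030 for all genes, and 34 members had a negative value. None changed by as much as 1 log2 unit, and 2 of the 18 that passed, Psmg1 and Psmg2, differed by at least 0.5. The standard errors of the members lay between 0.05 and 0.13, and the smallest difference that passed was 0.14 log2 units in size, in Psmc2. Among the 24 that did not pass, 23 had a 95% interval within 0.5 log2 units of 0 on both sides. The split between higher and lower moved with the scaling. After a shift of every fold change by 0.14 log2 units, which makes summed expression equal in both groups, 32 members were lower and 1, Psmd12, was higher, beside 38.5% and 8.42% of all genes. With ribosomal protein genes centred at 0, a shift of 0.07, 21 members were lower and 2 higher, beside 27.5% and 12.3% of all genes. In whole islets, fewer cells of a type and less RNA per cell cannot be told apart, and the part of the acinar, leukocyte and blood cell markers in these differences was not tested.

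**Figure D1:**
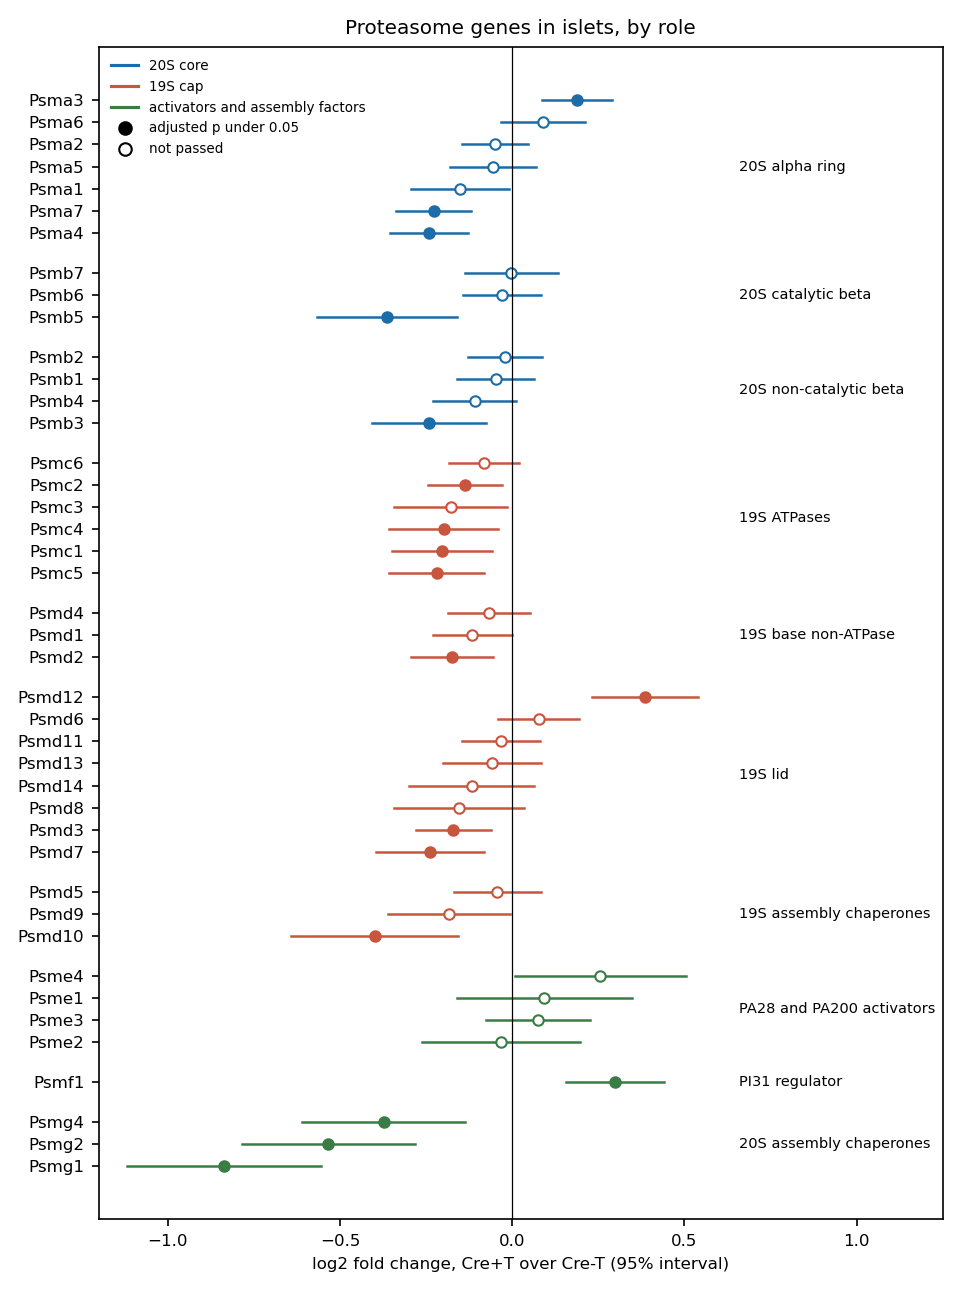
Log2 fold change of each of the 42 proteasome genes, Cre+T over Cre-T, with its 95% interval, grouped by role; filled points had a limma adjusted p under 0.05. Psmg1, Psmg2 and Psmg4 lie furthest to the left beside Psmd10, and Psmd12 and Psmf1 furthest to the right among filled points; with equal summed expression, Psma6, Psmd6, Psme1 and Psme3 move from above to below 0.

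All 3 measured Psmg genes, which encode chaperones that build the 20S core, fell, while Pomp, another such chaperone, did not. Psmg1 encodes PAC1, which with PAC2 forms the platform for the alpha ring. It had an estimated level of 3.59 log2 CPM in Cre+T and 4.43 in Cre-T, from the mean and fold change per the authors' deposited table and groups of 7 and 9. It fell to 0.560 of the Cre-T level (log2 fold change -0.84 ± 0.13, limma adjusted p = 0.000522), and ranked 190 of all genes by p per the authors' deposited table. The gene lies on chromosome 16 from 95979933 to 95990960 (GRCm38, GENCODE M21). Psmg2, which encodes PAC2, had estimated levels of 4.19 log2 CPM in Cre+T and 4.72 in Cre-T in the same calculation. Its log2 fold change was -0.53 ± 0.12, 0.691 of the Cre-T level (limma adjusted p = 0.00389), per the authors' deposited table. Psmg4 encodes PAC4, a chaperone that acts with PAC3, and was the member with the lowest mean, 3.10 log2 CPM. It was at -0.37 ± 0.11 (limma adjusted p = 0.0171) per the authors' deposited table, an estimated 2.89 log2 CPM in Cre+T and 3.27 in Cre-T. The 3 other scalings could not undo these falls, since they lower every value by 0.14 or 0.07 or raise it by 0.0030 log2 units. Pomp, the chaperone of beta-ring assembly, lies outside the name pattern and was at -0.0030 ± 0.07 (limma adjusted p = 0.976) per the authors' deposited table.

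Among the members, 3 genes encode 19S assembly chaperones, and they carry Psmd names. Psmd10, which encodes gankyrin, fell to 0.758 of the Cre-T level per the authors' deposited table, with a log2 fold change of -0.40 ± 0.11 (limma adjusted p = 0.0140). Psmd9, the chaperone p27, at -0.18 ± 0.08 (limma adjusted p = 0.0905) and Psmd5, the chaperone S5b, at -0.04 ± 0.06 (0.593) did not pass per the authors' deposited table. The Psmd9 annotation shares 1849 bases of exon with a gene on the other strand, and a library kit that does not keep the strand would mix their reads. With the 3 moved to the assembly factors, 7 of 17 cap genes and 4 of 11 activators and assembly factors were lower. Over all genes 20.1% were lower.

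In the 20S core 4 of 14 genes fell, 1 rose and 9 did not pass per the authors' deposited table. These are 28.6% lower and 7.14% higher, beside 20.1% and 17.6% over all genes. The median log2 fold change of the core was -0.05. Psmb5, Psmb6 and Psmb7 encode the 3 constitutive proteolytic subunits. Psmb5, with the chymotrypsin-like site, was at an estimated 6.22 log2 CPM in Cre+T and 6.58 in Cre-T. It fell to 0.777 of the Cre-T level per the authors' deposited table, a log2 fold change of -0.36 ± 0.10 (limma adjusted p = 0.00935, 95% interval -0.57 to -0.16). Psmb6, with the caspase-like site, was at -0.03 ± 0.05 per the authors' deposited table, with an interval of -0.14 to 0.08. Psmb7, with the trypsin-like site, was at -0.0021 ± 0.06 per the authors' deposited table, with an interval of -0.14 to 0.13. The Psmb7 annotation shares 405 bases of exon with Nek6 on the other strand, so its value is uncertain if the strand was not kept. The interval of Psmb5 does not meet those of Psmb6 and Psmb7, but the genes were measured in the same samples and the difference between them was not tested. Psmb5 lies on chromosome 14 from 54614119 to 54618022, and a pseudogene, Gm3375, matches 796 bases of its transcript at 95% identity or more, so its value is uncertain if reads were shared.

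Among the beta subunits without a proteolytic site, Psmb3 fell by 0.24 log2 units (standard error 0.08, limma adjusted p = 0.0241) per the authors' deposited table. Psmb4 (-0.11), Psmb1 (-0.05) and Psmb2 (-0.02) did not pass per the authors' deposited table. In the alpha ring, Psma4 at -0.24 ± 0.05 (limma adjusted p = 0.00371) and Psma7 at -0.23 ± 0.05 (0.00426) fell per the authors' deposited table. Psma3 rose 1.14-fold, by 0.19 ± 0.05 log2 units (limma adjusted p = 0.00741), per the authors' deposited table. It was the only alpha or beta gene that rose, and did not pass with equal summed expression (0.05, adjusted p = 0.447) or with ribosomal protein genes at 0 (0.12, adjusted p = 0.0503). Psma3 also has 4 annotated near-identical copies, Gm4742, Gm5406, Gm13835 and Gm609, so its reads could be shared. The same holds for Psmb3, with 3 pseudogene copies, and Psma4, with 1. Psma1 was at -0.15 ± 0.07 just outside the threshold (limma adjusted p = 0.0871), while Psma5 (-0.06), Psma2 (-0.05) and Psma6 (0.09) did not pass either per the authors' deposited table.

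The 19S cap had 8 of 20 genes lower, 1 higher and 11 that did not pass per the authors' deposited table, and their median log2 fold change was -0.15, beside 20.1% lower and 17.6% higher over all genes. The count lower was 0 at an adjusted p under 0.01, beside 10.6% of all genes, and 4 with a minimum of 0.2 log2 units, beside 18.8%. At these 2 settings the cap's share was thus below or near that of all genes. With equal summed expression 18 were lower, beside 38.5% of all genes. Its base holds the 6 ATPases that unfold substrates, and all 6 had values between -0.22 and -0.08. Psmc5 at -0.22 ± 0.07 (limma adjusted p = 0.0169), Psmc1 at -0.20 ± 0.07 (0.0301), Psmc4 at -0.20 ± 0.07 (0.0453) and Psmc2 at -0.14 ± 0.05 (0.0428) fell per the authors' deposited table. Psmc4 and Psmc2 were the 2 members just inside the threshold. Psmc3 at -0.18 ± 0.08 (limma adjusted p = 0.0790) was the first outside it, and Psmc6 was at -0.08 ± 0.05 (0.179) per the authors' deposited table. Of the other base subunits, Psmd2, a scaffold that binds shuttle factors and the member with the highest mean, 8.15 log2 CPM, fell by 0.18 log2 units (limma adjusted p = 0.0236) per the authors' deposited table. Psmc1 has 2 near-identical pseudogene copies and Psmd2 has 1, so their reads could be shared. Psmd1 at -0.12 ± 0.05 (limma adjusted p = 0.103) and the ubiquitin receptor gene Psmd4 at -0.07 ± 0.06 (0.350) did not pass per the authors' deposited table.

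The lid, which removes ubiquitin chains, moved both ways. Psmd12, a scaffold subunit of the lid, was at an estimated 7.01 log2 CPM in Cre+T and 6.63 in Cre-T. It rose 1.31-fold per the authors' deposited table, by 0.38 ± 0.07 log2 units (limma adjusted p = 0.00157, 95% interval 0.23 to 0.54). No other gene with a Psmc or Psmd name rose, though Shfm1, a lid gene outside the name pattern, did. Psmd12 stayed higher under each of the 3 other scalings. It lies on chromosome 11 from 107479484 to 107504362, with no near-identical copy or exon overlap found. Psmd7, the partner of the deubiquitinase, fell by 0.24 log2 units (limma adjusted p = 0.0202) and the scaffold gene Psmd3 by 0.17 (0.0170) per the authors' deposited table. Psmd14, which encodes the deubiquitinase itself, was at -0.12 ± 0.09 (limma adjusted p = 0.290) per the authors' deposited table. Psmd8 (-0.16), Psmd13 (-0.06), Psmd11 (-0.03) and Psmd6 (0.08) did not pass per the authors' deposited table.

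None of the 4 activator genes passed, and 1 of them, Psme4, had an unadjusted limma p under 0.05. Psme4, which encodes PA200, a nuclear activator, was at 0.26 ± 0.12 (limma adjusted p = 0.0957, 95% interval 0.01 to 0.50) per the authors' deposited table. Psme1 and Psme2 encode PA28 alpha and beta, which are induced by interferon, and were at 0.09 ± 0.12 and -0.03 ± 0.11 per the authors' deposited table. Psme3, which encodes the nuclear PA28 gamma, was at 0.07 ± 0.07 per the authors' deposited table. Psmf1 encodes PI31, a 20S-binding regulator, and was at an estimated 6.03 log2 CPM in Cre+T and 5.73 in Cre-T. It rose 1.23-fold, by 0.30 ± 0.07 log2 units (limma adjusted p = 0.00406), per the authors' deposited table, and did not pass with equal summed expression (0.16, adjusted p = 0.0662). It lies on chromosome 2 from 151715812 to 151744186. The class of activators and assembly factors thus had 3 genes lower, 1 higher and 4 that did not pass. These are 37.5% lower and 12.5% higher of its 8 genes, beside 20.1% and 17.6% over all genes. The class median of 0.02 turned to -0.12 with equal summed expression and to -0.04 with ribosomal protein genes at 0. It also turned to -0.04 with the 19S chaperones moved into the class.

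**Figure D2:**
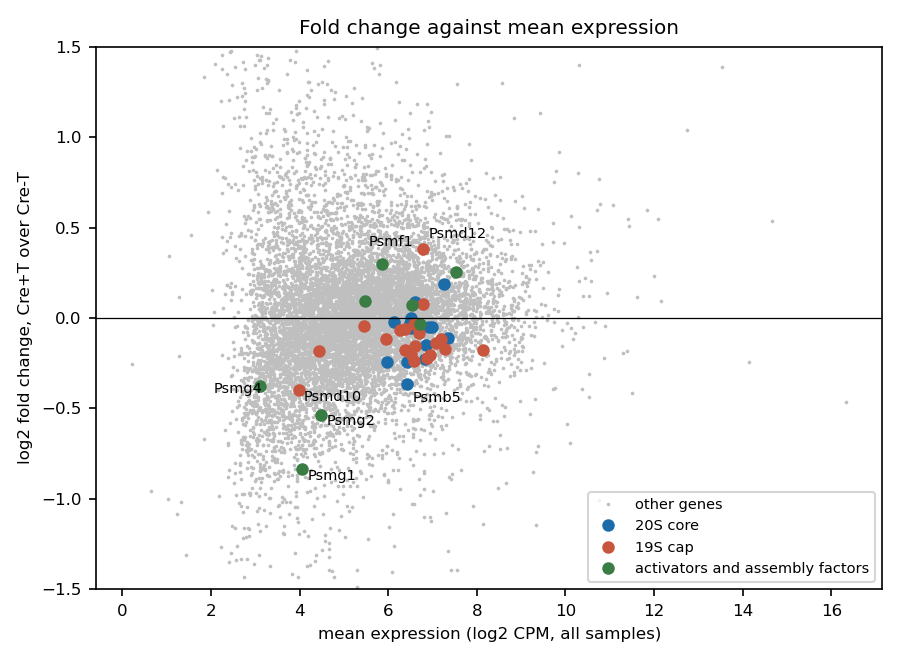
Log2 fold change, Cre+T over Cre-T, against the authors' mean expression in log2 CPM, with all genes in grey and proteasome genes coloured by class; 189 genes beyond 1.5 log2 units are off the axis. Most core and cap genes form a narrow band just below 0 at means of 6 to 8, and Psmg1, Psmg2, Psmg4 and Psmd10 lie apart at lower means and lower fold changes.

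Levels between genes were compared after division by transcript length, as the authors' mean in log2 CPM per kb of the principal GENCODE transcript. The 20S core had the highest median of the 3 classes, with a value of 6.36 and a range of 5.37 to 7.11 log2 CPM per kb. The cap had a median of 5.86, and its ATPases, at 5.54 to 6.48, lay within the range of the core. The 19S assembly chaperones were lowest, at 3.07 to 3.47 log2 CPM per kb, and the 20S assembly chaperones were at 3.95 to 4.41. Psmf1 was at 3.93 log2 CPM per kb and the activators at 4.83 to 6.76. Of the 5 members below the median mean of all genes, 5.21 log2 CPM, 4 fell, namely Psmg1, Psmg2, Psmg4 and Psmd10, and Psmd9 did not pass. Over all genes 20.1% were lower. Of the 37 members at or above that median, with p adjusted among such genes, 11 were lower and 3 higher. Of all genes at or above it, 15.7% were lower and 21.5% higher. The share lower among all genes below the median was not calculated, so the 5 members there have no matched share beside them.

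**Figure D3:**
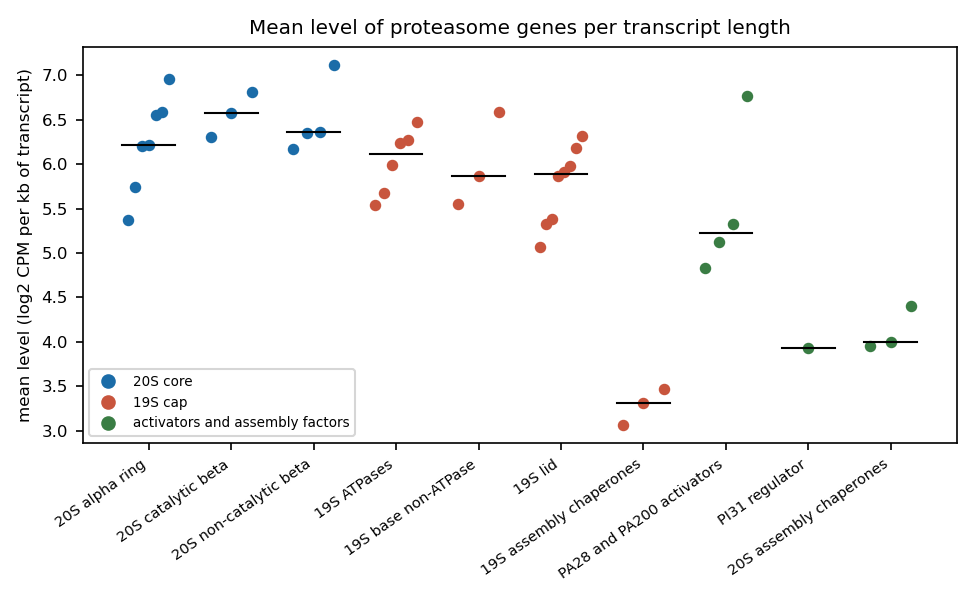
Mean level of each proteasome gene over all samples, in log2 CPM per kb of its principal transcript, by role, with a line at the median of each role. Core subunits and cap ATPases lie between 5.37 and 7.11, and the assembly chaperones between 3.07 and 4.41.

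Other genes of the pathway were read from lists drawn up for it. Of 9 measured parts and partners outside the name pattern, 2 fell and 1 rose per the authors' deposited table, beside 20.1% lower and 17.6% higher over all genes, and their median log2 fold change was -0.07 beside -0.0030 for all genes. The cap-bound deubiquitinase gene Uchl5 fell by 0.36 (limma adjusted p = 0.00744) and Zfand5, a ubiquitin-binding activator of the proteasome, by 0.21 log2 units (0.0146) per the authors' deposited table. Shfm1, the smallest lid subunit, rose by 0.20 ± 0.07 log2 units (limma adjusted p = 0.0305) per the authors' deposited table. Akirin2, a factor for nuclear import of proteasomes, was at 0.18 ± 0.07 (limma adjusted p = 0.0504) per the authors' deposited table. With equal summed expression 6 of the 9 were lower, beside 38.5% of all genes, and none was higher, Shfm1 included (0.06, adjusted p = 0.505).

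Nfe2l1 encodes NRF1, the factor that raises transcription of proteasome genes when proteasome activity falls. It fell to 0.799 of the Cre-T level per the authors' deposited table, by 0.32 ± 0.05 log2 units (limma adjusted p = 0.000289). The 3 other scalings could not undo this fall, since they lower every value or raise it by 0.0030. Of the 7 measured genes of its list 3 fell and 1 rose, beside 20.1% lower and 17.6% higher over all genes. Keap1, which restrains the related factor NRF2, was at -0.15 ± 0.04 (limma adjusted p = 0.0138), and the small Maf partner gene Mafg at -0.55 ± 0.19 (0.0348), per the authors' deposited table. Maff, another small Maf gene, rose by 0.91 ± 0.24 log2 units (limma adjusted p = 0.00944) per the authors' deposited table. The median of the list was -0.07.

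Other genes act in bringing ubiquitinated proteins to the proteasome. Of 13 measured genes of VCP, its cofactors and shuttle factors, 5 fell and none rose at a limma adjusted p under 0.05, nor at an unadjusted one, per the authors' deposited table, and their median log2 fold change was -0.09. Over all genes 20.1% were lower and 17.6% higher. With equal summed expression 10 of the 13 were lower, beside 38.5% of all genes. Faf1, a VCP cofactor, fell by 0.34 log2 units (limma adjusted p = 0.000904) and Ubxn4, a VCP anchor at the endoplasmic reticulum, by 0.22 (0.00388) per the authors' deposited table. Vcp, the ATPase that extracts proteins for degradation, fell by 0.29 log2 units (limma adjusted p = 0.0158), and Ubqln2, a shuttle factor, by 0.28 (0.0195), per the authors' deposited table.

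Among 21 measured enzymes that activate or conjugate ubiquitin, 5 rose and 1 fell per the authors' deposited table, beside 17.6% higher and 20.1% lower over all genes, with a median of 0.08. Ube2j1 rose by 0.55 ± 0.12 (limma adjusted p = 0.00394) and Ube2j2 by 0.39 ± 0.08 log2 units (0.00323) per the authors' deposited table, both conjugating enzymes of the endoplasmic reticulum membrane. Ube2h rose by 0.43 ± 0.10 (limma adjusted p = 0.00395) and Ube2e3 by 0.37 ± 0.08 log2 units (0.00409) per the authors' deposited table. With equal summed expression 4 of the list were higher and 7 lower, beside 8.42% and 38.5% of all genes.

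The left-out immunoproteasome genes were positive but did not pass. Psmb8 was at 0.51 ± 0.23 (limma adjusted p = 0.0889), Psmb10 at 0.38 ± 0.20 (0.145) and Psmb9 at 0.36 ± 0.21 (0.173) per the authors' deposited table. Their standard errors were above those of all 42 members. In the list of these genes with peptide transport, 1 of 7 was higher, 14.3% beside 17.6% over all genes. It was B2m at 0.56 ± 0.21 (limma adjusted p = 0.0451), while Tap1 was at 0.44 ± 0.21 and Tap2 at 0.33 ± 0.16 per the authors' deposited table. B2m did not pass with equal summed expression (0.41, adjusted p = 0.112) or with ribosomal protein genes at 0 (0.49, adjusted p = 0.0692). Of 10 leukocyte markers 5 were higher, beside 17.6% of all genes, and 5 did not pass in the same comparison. Their part in these values was not tested.

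**Figure D4:**
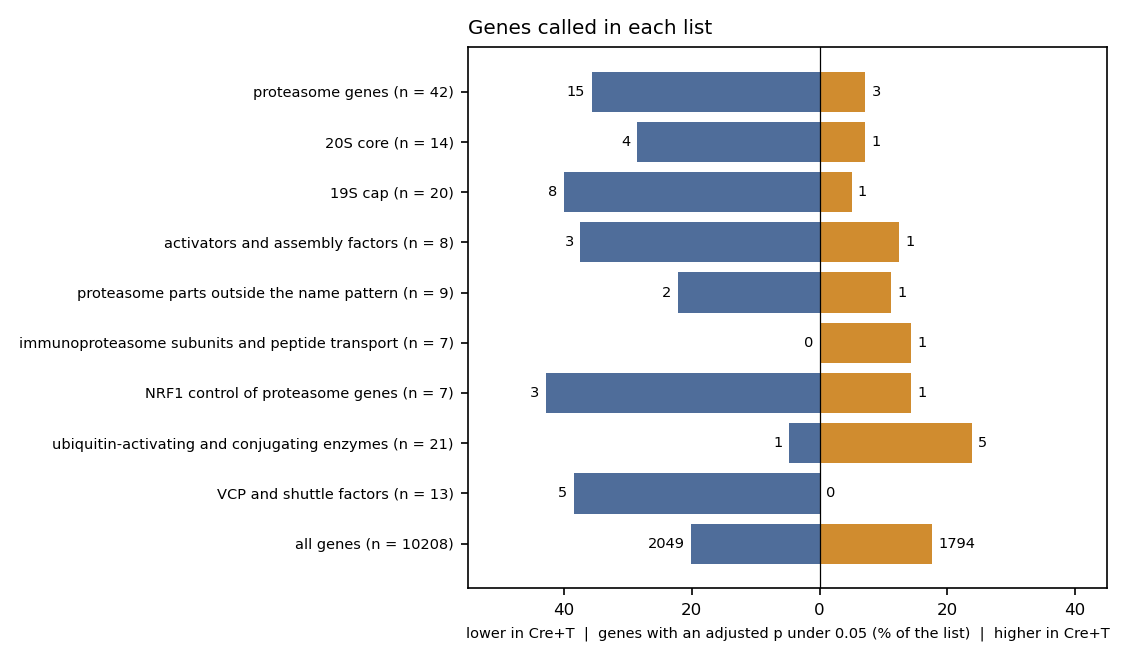
Share of each list with a limma adjusted p under 0.05, lower in Cre+T to the left and higher to the right, with the number of genes at each bar. The proteasome genes have 15 lower and 3 higher, the VCP list 5 and 0, and all genes 2049 and 1794; with equal summed expression the proteasome counts become 32 and 1.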

How the data were processed

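RNA of pancreatic islets from 7 Cre+T and 9 Cre-T samples was sequenced in 150 bp pairs, at 20000000 pairs per sample per the labels; the depth of single samples is unknown. TopHat2 aligned the reads to GRCm38 and limma tested the genes, both named without version in the submitters' processing notes. The counting tool, and which samples were fitted, were not named in the labels or headers (not given in the sources used here). Per the file headers, each gene has a log2 fold change, a mean (read here as log2 CPM), 2 scores (moderated t and log-odds) and 3 p-values (raw, adjusted, and a q-value), all made by the authors. A standard error is the ratio of the log2 fold change to t, and 95% intervals use the 16.1 degrees of freedom that the p-values imply. Group levels are estimates from the mean and fold change. The labels do not say that each sample was a separate animal, so p-values cover only the spread among samples, which may be technical.

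A gene passed where the authors' adjusted p, taken over all 10208 rows, was under 0.05. Named were all members that passed, the extremes of each class, the catalytic subunits, the members next to the threshold and the 4 smallest p of each related list. Other members, Pomp and the remaining immunoproteasome genes were named after their values were seen. Some genes of the related lists are not reported here. The members and lists were chosen with earlier results of these data known. Classes and lists are described by counts and medians. Near-identical copies (at least 95% identity over 300 bases) were searched with BLAST 2.17.0 in GENCODE M21 transcripts. Alternatives were other thresholds and adjustments, filters on the mean, a minimum fold change, 3 scalings and another grouping. Scaling shifted the fold changes and kept their standard errors. Summed expression is the sum over genes of the estimated group levels on the linear scale, which need not equal total counts. The calculation was tested on simulated data. The calculations used Python 3.11.15 with scipy 1.17.1.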

Additional observations from a re-analysis of the deposited data

How the results depend on the processing

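Leaving out each sample in turn was not run: the authors' deposited table has no values per sample. No paired analysis was possible because the columns carry none of the samples. The medians stayed negative for the members, the 20S core and the 19S cap under the filters and groupings run. They did so under the scalings too, which lower every value or raise it by 0.0030 and so could not change the sign. Keeping all rows of a repeated name changed nothing, since no member name repeats.

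At an adjusted p under 0.01, 5 members were lower (10.6% of all genes) and 3 higher (7.41%), 0 of the lower ones in the cap. At 0.1 there were 2 higher activators and assembly factors (22.6% of all genes), as with the authors' q-value (26.4%). That q-value is 0.325 times the adjusted p in every row. With Holm adjustment 0 members passed in any class in either direction (1.04% of all genes were lower and 0.313% higher). At an unadjusted limma p under 0.05, 19 members were lower and 4 higher, beside 2557 and 2351 of all 10208 genes. Among genes at or above the median mean, 0 activators and assembly factors were lower, since the 3 Psmg genes fall below it. With a minimum of 0.2 log2 units 4 cap genes were lower (18.8% of all genes) and 0 core genes higher (16.6% of all genes). With equal summed expression, 38.5% of all genes were lower and 8.42% higher. Of the members 32 were then lower and 1 higher (median -0.26), with 11 core genes lower and 0 higher (-0.20) and 18 cap genes lower (-0.29). Of the activators and assembly factors 0 were higher, with a median of -0.12 in place of 0.02. Single genes also turned: Psma6 to -0.0535, Psmd6 to -0.0661, Psme1 to -0.0493 and Psme3 to -0.0685. In the related lists, the other parts then had 6 lower and 0 higher, the immunoproteasome list 0 higher, conjugating enzymes 7 lower and VCP factors 10 lower. With ribosomal protein genes at 0, 0 core genes were higher (12.3% of all genes) and the core median was -0.12. With the median of all genes at 0, Psmb7 turned to 0.00087. These changes follow from the shift itself. Without the 16 members that have a near-identical copy or an exon overlap, a choice made after seeing the data, 9 of 26 members were lower and 2 higher. The shares over all genes were 20.1% and 17.6%. The longer motif with an A at its end was in 2 member genes (5.71%, beside 3.45% of all genes) and CCAAT, added after seeing the data, in 12, against 6 for TGACNNNGC.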

Other observations

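Across the 42 proteasome genes, the log2 fold change of Cre+T over Cre-T and the mean in log2 CPM of the authors' deposited table had a Spearman rho of 0.26, beside 0.16 over all 10208 genes. The Pearson r of the 42 was 0.51, and that of all genes was not calculated. The genes share the same libraries and are not independent, so these are descriptions. In the authors' deposited table, Psmb8, Psmb9 and Psmb10 were all above 0, whereas the constitutive catalytic subunits Psmb5, Psmb6 and Psmb7, which they replace in the immunoproteasome, were all below it or near 0, and the difference between the sets was not tested.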
